A study of Homo sapiens with 24 samples.

Results

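The genes described here are the human HOX cluster genes, chosen by symbol as the letters HOX, a cluster letter from A to D and a number. This rule found 39 of the 58884 genes listed in each of 2 tables of RNA abundance: 11 in HOXA, 10 in HOXB, 9 in HOXC and 9 in HOXD. The study sequenced RNA of HEK293T, a human embryonic kidney cell line, and of its derivative named KO, in which both alleles of SETD2 had been disrupted. SETD2 is the enzyme that trimethylates lysine 36 of histone H3. KO is a single derived line, so an effect of SETD2 loss cannot be told apart from other differences between KO and WT. The labels name the tables batch1 and batch2. The first table holds 2 libraries of WT cells and 2 of KO cells, all labelled untreated, and asks what differed between KO and WT. The second holds 2 libraries of KO cells, 2 of KO cells expressing SETD2 FL, the full-length protein, and 2 of KO cells expressing SETD2 C, a fragment of residues 1404 to 2564, and asks what each construct restored or altered. The constructs carried a tag, were driven by a CMV promoter and were introduced by transient transfection with Fugene HD, with RNA isolated 72 h later. KO libraries are labelled untreated, so an effect of transfection and an effect of a construct cannot be told apart in comparisons with KO. Nothing in the labels says that replicates were separate cultures, so each p measures the spread between libraries, which may be technical.

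HOX genes encode homeodomain transcription factors that give cells their position along the head-to-tail axis and the limbs of the embryo. They lie in clusters in which the order of the genes follows the order of their expression along the body, from the anterior genes with low numbers to the posterior genes with high numbers, and genes that share a number in different clusters are paralogs. Polycomb proteins keep the clusters silent and trithorax proteins keep them active, and cultured cells tend to retain a HOX pattern from their tissue of origin.

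The values are TPM, the abundance of a gene's transcripts per unit of transcript length, as a share of all transcripts of the library. TPM carries no read counts, so library depth is unknown. In bulk RNA, fewer cells with a transcript and less RNA per cell cannot be told apart. SETD2 itself had a TPM of 12.6 and 14.8 in the WT libraries and 16.2 and 16.3 in the KO libraries of the first table, a log2 fold change of 0.11 with a standard error (SE) of 0.079 and adjusted p = 0.408 (limma, Benjamini-Hochberg). SETD2 mRNA was thus not reduced in KO, and which cells are WT or KO is taken here from the sample labels, as other assays of SETD2 loss were not used here. In the other table SETD2 stood at 11.99 and 12.2 in KO, 439 and 422 in SETD2 FL and 1329 and 1264 in SETD2 C. SETD2 C libraries thus had the higher SETD2 TPM, but TPM assumes the transcript lengths of the annotated gene, so it does not measure how many transcripts of a full-length and a shortened construct were present. The part of any such difference in the results was not tested.

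The HOXA genes occupy 107.1 kb of chromosome 7 on the minus strand and the HOXB genes 200.2 kb of chromosome 17 (48528526 to 48728750, GRCh38), also on the minus strand. The HOXC genes occupy 117.2 kb of chromosome 12 (53938831 to 54056030) and the HOXD genes 98.2 kb of chromosome 2 (176092721 to 176190907), both on the plus strand. A mean TPM of at least 1 was reached by 34 of the 39 genes in the first table and 32 in the second, and a mean of at least 5 by 28 in each. The median of the 39 mean values was 12.2 TPM in the first table, against 11.5 for all genes tested, and 10.6 against 10.4 in the second. Each of the 4 clusters thus held transcribed genes in these cells. From here on, values for WT and KO come from the first table, and values for KO, SETD2 FL and SETD2 C from the second. In the descriptions by cluster, orders and overlaps of groups are those of TPM as listed, without scaling. Scaling between libraries changed some of them, as for HOXC4, whose WT and KO libraries overlapped once scaled. Summed TPM over the 39 genes was 803 and 938 in WT and 881 and 894 in KO. In the second table the sums were 557 and 536 in KO, 490.2 and 522 in SETD2 FL and 664 and 702 in SETD2 C. Both SETD2 C sums lay above the other 4 sums of the second table, and the WT and KO sums overlapped.

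HOXA, the cluster with the largest summed TPM, reached 330.0 and 386 in WT and 333 and 337 in KO, and 201 and 191 in KO, 179.8 and 189 in SETD2 FL and 244 and 258 in SETD2 C. HOXA9, a regulator of blood progenitors that is often active in leukemia, was its most abundant gene and made up 39.5% of the cluster's sum in the first table and 28.4% in the second. The TPM of HOXA9 was 135 and 155 in WT and 125 and 132 in KO. HOXA9 stood at 62.2 and 58.4 in KO, 53.1 and 56.2 in SETD2 FL and 60.6 and 68.9 in SETD2 C. Both KO values lay below both WT values, and the SETD2 C libraries overlapped the KO libraries. HOXA10, needed for patterning of the uterus, had a TPM of 63.2 and 78.3 in WT and 57.7 and 62.1 in KO. HOXA10 reached 31.1 and 30.1 in KO, 27.5 and 29.6 in SETD2 FL and 31.98 and 33.3 in SETD2 C. Its KO values again lay below its WT values, while all 6 values of the second table stayed within a narrow band. HOXA11, which acts in the uterus, kidney and forearm, measured 20.2 and 25.1 in WT and 23.8 and 23.3 in KO. HOXA11 was at 18.4 and 17.8 in KO, 16.4 and 18.2 in SETD2 FL and 21.9 and 22.2 in SETD2 C. Here WT and KO overlapped, and both SETD2 C values were the highest of the second table.

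HOXA13, the most posterior HOXA gene, acts in the digits, hindgut and urogenital tract. Its TPM was 11.8 and 15.6 in WT and 13.8 and 13.4 in KO. HOXA13 stood at 11.9 and 12.01 in KO, 11.2 and 11.4 in SETD2 FL and 33.3 and 36.5 in SETD2 C. WT and KO overlapped, whereas both SETD2 C libraries were far above the other 4 libraries of their table, with 34.9 ± 2.27 (SD, n = 2) against 11.96 ± 0.0778 (SD, n = 2) in KO. HOXA5, needed for lung and diaphragm, had a TPM of 38.1 and 42.2 in WT and 40.7 and 40.5 in KO. HOXA5 reached 33.01 and 29.7 in KO, 30.8 and 30.9 in SETD2 FL and 34.04 and 37.7 in SETD2 C. All its groups lay close together, with overlap between WT and KO and between KO and SETD2 FL. HOXA4, a gene of the neck region, was at 16.1 and 15.3 in WT and 18.0 and 17.3 in KO. HOXA4 measured 10.9 and 10.8 in KO, 9.94 and 9.89 in SETD2 FL and 21.4 and 22.1 in SETD2 C. Both SETD2 C values were well above the remaining 4, and both SETD2 FL values were just below KO.

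HOXA3, required for thymus and parathyroid, was at 10.4 and 10.8 in WT and 9.74 and 7.47 in KO. HOXA3 measured 5.26 and 6.26 in KO, 5.41 and 5.57 in SETD2 FL and 9.13 and 6.49 in SETD2 C. KO lay below WT in the first table, and the SETD2 C values, spread widely, lay above the others. HOXA6 had a TPM of 10.2 and 13.8 in WT and 13.1 and 11.8 in KO. HOXA6 reached 10.8 and 10.1 in KO, 8.41 and 10.0 in SETD2 FL and 12.1 and 12.7 in SETD2 C. WT and KO overlapped, and the SETD2 groups lay on opposite sides of KO. HOXA7, of which 62.5% of exon bases are shared with the antisense transcript HOXA-AS3, measured 10.1 and 12.6 in WT and 11.2 and 10.2 in KO. HOXA7 was at 3.54 and 3.34 in KO, 3.81 and 4.52 in SETD2 FL and 3.62 and 3.14 in SETD2 C, with SETD2 FL above KO and SETD2 C overlapping KO. HOXA2, which patterns the hindbrain and middle ear, ranged from 1.52 to 2.19 in the first table and 0.56 to 1.11 in the second.

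HOXB sums were 199 and 246 in WT and 223 and 236 in KO, and 142 and 137 in KO, 126 and 133 in SETD2 FL and 144 and 148 in SETD2 C. HOXB9, a gene of the thoracic region, led the cluster with 36.8% of its sum in the first table and 38.6% in the second. The TPM of HOXB9 was 72.7 and 88.1 in WT and 87.1 and 85.2 in KO. HOXB9 measured 58.6 and 56.1 in KO, 49.5 and 53.7 in SETD2 FL and 52.0 and 50.3 in SETD2 C. WT and KO overlapped, and both KO values of the second table were above all 4 values with a construct. HOXB7, a gene of the thoracic region whose locus spans HOXB8 and HOXB9, had a TPM of 37.9 and 56.1 in WT and 43.8 and 60.98 in KO. HOXB7 stood at 13.3 and 12.3 in KO, 13.9 and 13.7 in SETD2 FL and 11.04 and 12.9 in SETD2 C. The replicates of the first table were far apart, and WT and KO overlapped. HOXB6, expressed in erythroid progenitors, reached 28.1 and 29.4 in WT and 27.3 and 27.5 in KO. HOXB6 was at 17.1 and 17.3 in KO, 17.1 and 18.4 in SETD2 FL and 21.9 and 23.3 in SETD2 C. Both KO values of the first table lay just below WT, and both SETD2 C values were the highest of theirs.

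HOXB8, which is needed for microglia and the nervous control of grooming, had a TPM of 19.7 and 24.1 in WT and 18.7 and 15.7 in KO. HOXB8 measured 13.7 and 13.7 in KO, 11.4 and 11.1 in SETD2 FL and 16.5 and 15.5 in SETD2 C. KO lay below WT, SETD2 FL below KO, and SETD2 C above KO. HOXB2, a hindbrain gene, was at 13.3 and 15.4 in WT and 13.9 and 15.4 in KO. HOXB2 stood at 8.54 and 7.78 in KO, 7.79 and 7.38 in SETD2 FL and 9.14 and 10.6 in SETD2 C. WT and KO overlapped, as did KO and SETD2 FL. HOXB3, also a hindbrain gene, reached 11.02 and 14.9 in WT and 11.1 and 11.2 in KO. HOXB3 was at 9.38 and 9.07 in KO, 8.33 and 8.85 in SETD2 FL and 10.3 and 13.04 in SETD2 C. A single WT library was high and the other 3 libraries of that table were alike. HOXB13, a regulator of prostate development, had a TPM of 6.03 and 7.31 in WT and 8.92 and 8.33 in KO. HOXB13 measured 8.68 and 8.1 in KO, 7.93 and 9.37 in SETD2 FL and 7.86 and 6.79 in SETD2 C. Both KO values were above WT in the first table, and both SETD2 C values were the lowest of the second.

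HOXB5, which acts in the enteric nervous system, had a TPM of 6.55 and 6.89 in WT and 6.76 and 7.12 in KO. HOXB5 reached 6.08 and 6.17 in KO, 4.54 and 4.83 in SETD2 FL and 5.21 and 5.04 in SETD2 C. WT and KO overlapped, and all 4 libraries with a construct were below both KO libraries. HOXB4, known for expanding blood stem cells, stood at 3.45 and 3.92 in WT and 5.6 and 4.56 in KO. HOXB4 was at 6.6 and 6.42 in KO, 5.34 and 5.38 in SETD2 FL and 10.4 and 11.1 in SETD2 C. KO exceeded WT in the first table, SETD2 FL was lowest in the second, and both SETD2 C values were clearly highest. HOXB1, which specifies facial motor neurons, was listed at 0 in 3 of 4 libraries of the first table and 5 of 6 of the second, with a highest value of 0.02 TPM.

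HOXC sums were 132 and 144 in WT and 151 and 156 in KO, and 100.5 and 94.9 in KO, 85.4 and 90.8 in SETD2 FL and 106 and 111 in SETD2 C. HOXC9, which sets the identity of thoracic motor neurons, led the cluster in the first table with 31.9% of the sum, and HOXC4, a gene of the neck region, led it in the second with 29.1%. The TPM of HOXC9 was 44.4 and 46.8 in WT and 46.1 and 48.8 in KO. HOXC9 stood at 18.8 and 16.1 in KO, 15.7 and 15.1 in SETD2 FL and 15.7 and 21.9 in SETD2 C. WT and KO overlapped, and so did SETD2 C with both other groups, its replicates being far apart. HOXC4 had a TPM of 27.9 and 30.8 in WT and 32.3 and 33.8 in KO. HOXC4 measured 30.6 and 27.9 in KO, 24.9 and 27.6 in SETD2 FL and 29.8 and 30.1 in SETD2 C. KO was above WT, and the KO and SETD2 C libraries overlapped. HOXC10, which acts in lumbar motor neurons and hindlimb, was at 26.1 and 29.3 in WT and 27.9 and 31.1 in KO. HOXC10 reached 15.3 and 16.8 in KO, 14.2 and 16.1 in SETD2 FL and 20.4 and 19.9 in SETD2 C. WT and KO overlapped, and both SETD2 C values were highest.

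HOXC6, a gene of limb-innervating motor neurons, had a TPM of 16.8 and 19.8 in WT and 23.1 and 22.7 in KO. HOXC6 measured 15.8 and 15.2 in KO, 13.3 and 13.9 in SETD2 FL and 18.2 and 18.4 in SETD2 C. Both KO values were above WT, SETD2 FL was below KO and SETD2 C above it. HOXC13, a regulator of hair keratins, was at 7.49 and 8.58 in WT and 10.3 and 9.67 in KO. HOXC13 stood at 10.8 and 10.5 in KO, 9.86 and 10.4 in SETD2 FL and 11.1 and 11.01 in SETD2 C. KO was above WT, and the second table covered a narrow range. HOXC11 reached 4.55 and 4.98 in WT and 6.32 and 5.31 in KO. HOXC11 was at 5.23 and 5.65 in KO, 4.4 and 4.69 in SETD2 FL and 6.63 and 5.69 in SETD2 C, with SETD2 FL lowest and SETD2 C highest. HOXC8, a gene of brachial motor neurons, ranged from 3.69 to 4.27 in the first table and 2.45 to 3.03 in the second. HOXC5, of whose exon bases 67.3% are shared with neighbouring transcripts, ranged from 0.33 to 0.48 in the first table and 0.12 to 0.78 in the second. HOXC12 ranged from 0.15 to 0.21 in the first table and 0.21 to 0.59 in the second.

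HOXD sums were 142 and 161 in WT and 174 and 164 in KO, and 113 and 113 in KO, 99.2 and 109.5 in SETD2 FL and 169.8 and 184 in SETD2 C. HOXD13, which shapes the digits, supplied 50.6% of the sum in the first table and 49.1% in the second, where it was the most abundant of all 39 genes. The TPM of HOXD13 was 63.1 and 79.4 in WT and 90.5 and 91.2 in KO. HOXD13 measured 56.6 and 58.4 in KO, 47.2 and 54.4 in SETD2 FL and 82.95 and 87.7 in SETD2 C. KO lay above WT, SETD2 FL below KO, and both SETD2 C values were highest. HOXD10, which acts in lumbar motor neurons and limb, had a TPM of 42.8 and 48.7 in WT and 50.3 and 41.1 in KO. HOXD10 stood at 28.1 and 26.2 in KO, 25.5 and 27.7 in SETD2 FL and 42.7 and 49.7 in SETD2 C. WT and KO overlapped, and both SETD2 C values were above the remaining 4. HOXD11, needed with HOXA11 for forearm and kidney, was at 14.9 and 16.1 in WT and 17.3 and 17.8 in KO. HOXD11 reached 14.8 and 14.9 in KO, 14.4 and 14.2 in SETD2 FL and 25.7 and 26.6 in SETD2 C. The replicates were close in every group, with SETD2 C far above the others.

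HOXD9, a gene of lumbar motor neurons and forelimb, had a TPM of 12.7 and 8.76 in WT and 7.78 and 5.97 in KO. HOXD9 measured 6.65 and 5.99 in KO, 6.55 and 6.61 in SETD2 FL and 9.26 and 9.49 in SETD2 C. A single WT library was high, KO lay below WT, and both SETD2 C values were the highest of the second table. HOXD8 ranged from 4.04 to 4.5 in the first table and 3.27 to 6.82 in the second. HOXD4, a gene of the neck region, ranged from 1.36 to 2.85 in the first table and 1.4 to 2.06 in the second, and HOXD3, which shapes the first neck vertebrae, from 1.65 to 1.8 in the first table and 0.51 to 1.3 in the second. HOXD1, which acts in pain-sensing neurons, ranged from 0.17 to 0.3 in the first table and 0.14 to 0.37 in the second. HOXD12, a digit gene that lies between HOXD11 and HOXD13, ranged from 0.07 to 0.24 in the first table and 0 to 0.11 in the second. A pair of transcribed genes therefore enclosed a nearly silent one in HOXD, as HOXC11 and HOXC13 enclosed HOXC12. The plots of TPM by gene show both gaps.

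**Figure D1:**
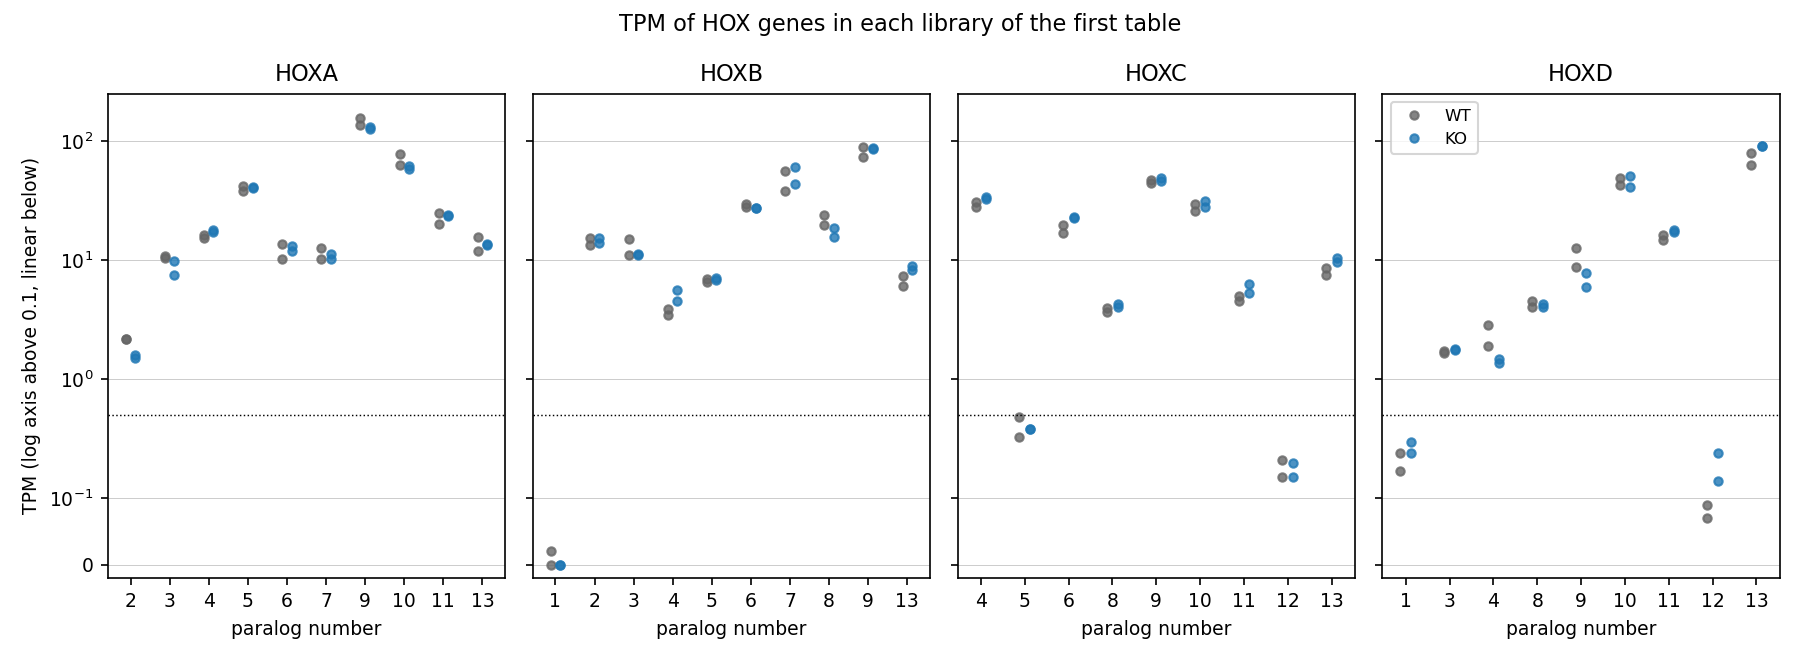
TPM (log scale) of HOX genes in the 4 libraries of the first table, 1 panel for each cluster, with genes in the order of their numbers and 1 point for each WT or KO library. HOXA9 is highest at 125 to 155 TPM, and HOXB1, HOXC5, HOXC12, HOXD1 and HOXD12 lie below the dotted line at a TPM of 0.5.

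**Figure D2:**
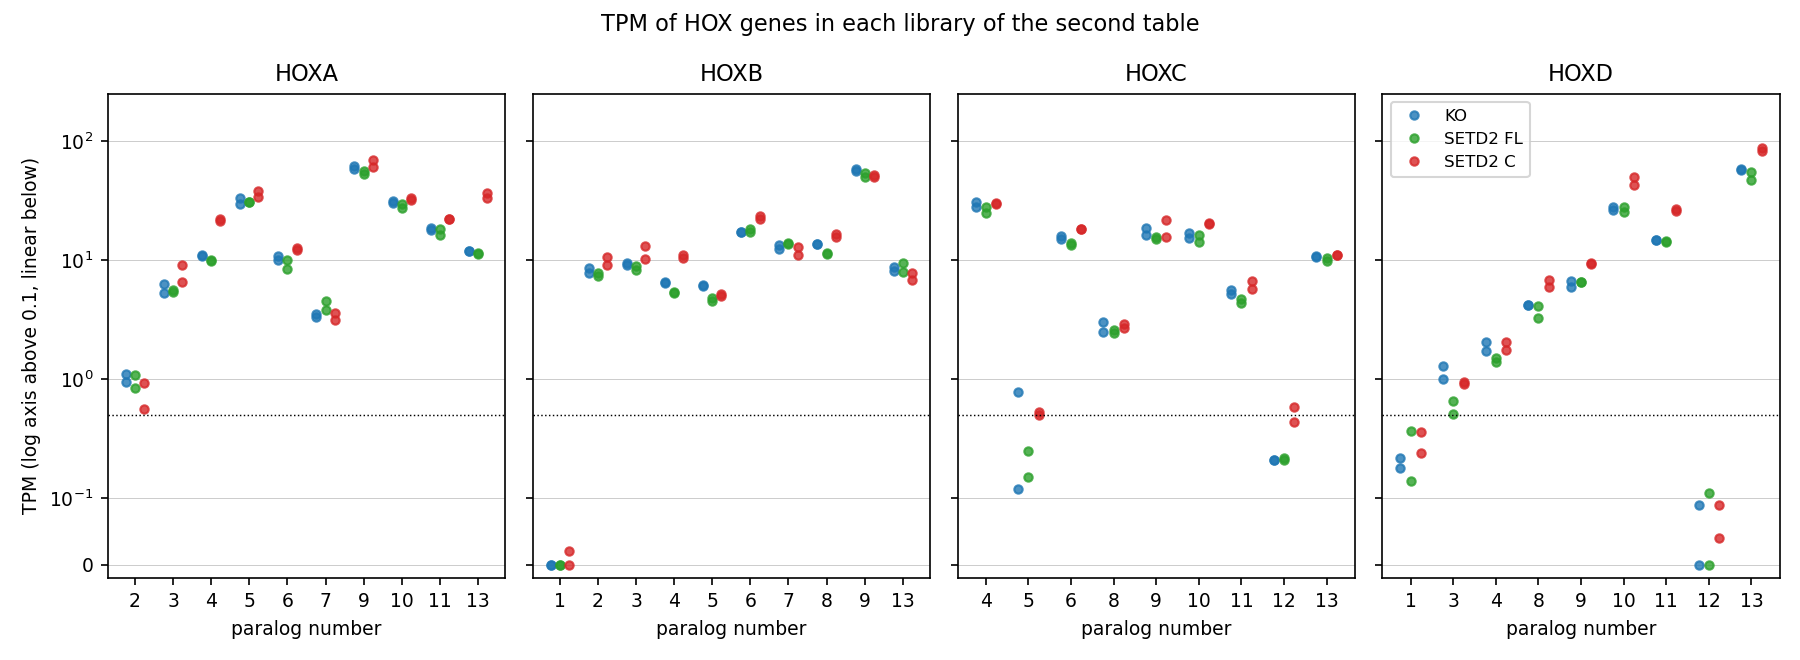
TPM (log scale) of HOX genes in the 6 libraries of the second table, laid out by cluster and gene number, with 1 point for each KO, SETD2 FL or SETD2 C library and a dotted line at a TPM of 0.5. The SETD2 C points of HOXA13 (33.3 and 36.5) stand apart from those of the other groups (11.2 to 12.01).

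Differences were tested on log2(scaled TPM + 0.5), with each library scaled by its median ratio to the others, and groups are said to overlap or not on that scale in the comparisons that follow. Genes that reached 0.5 TPM in 2 or more libraries of a table were tested, which were 34 HOX genes in the first table and 35 in the second. HOXB1, HOXC12, HOXD1 and HOXD12 were tested in neither table, and HOXC5 passed only in the second. A gene was called where its level differed 2-fold or more with an adjusted p no higher than 0.05 (limma, Benjamini-Hochberg over all genes tested), and the adjusted p alone was used as a second rule. Since the 3 comparisons of the second table share libraries, their values are given side by side and are not independent. Each group has 2 libraries, and a p above the threshold does not show that levels were equal. Over all genes tested, scaling moved the median log2 fold change from 0.11 to -0.0058 between KO and WT, from 0.18 to 0.046 between SETD2 C and KO, and from 0.16 to 0.042 between SETD2 C and SETD2 FL.

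Between KO and WT, no HOX gene passed the test. None of the 34 tested HOX genes was called by limma, against 1.36% of all 14741 genes tested. At the adjusted p alone the count was also 0 in each direction, against 1.32% of all genes higher and 3.17% lower, but HOXD9 passed without scaling and HOXA9 and HOXA10 under quantile normalization, all lower. In the reported fit 12 HOX genes had an unadjusted p under 0.05, as did 24.9% of all genes. KO lay above WT without overlap for 6 HOX genes (27.4% of all genes) and below it for 15 (29.4%). This order depended on the scaling, as 12 HOX genes were above (36.6% of all genes) and 8 below (14.6%) in TPM that was not scaled. Positive estimates numbered 11 of 34 with scaling (48.9% of all genes) and 21 without (68.1% of all genes). Over the 34 HOX genes the median log2 fold change was -0.069 (all genes -0.0058), and it was 0.059 without scaling. The cluster medians were -0.13 for HOXA, -0.079 for HOXB, 0.041 for HOXC and -0.13 for HOXD, of which that of HOXB became 0.043 without scaling, and those of HOXA and HOXD came to -0.0032 and -0.0042. Without scaling HOXC stood at 0.17.

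The log2 fold change was -0.30 (SE 0.072, adjusted p = 0.0675) for HOXA9. HOXB9 had -0.024 (SE 0.066, adjusted p = 0.855) and HOXC9 -0.074 (SE 0.087, adjusted p = 0.635), and both estimates were positive without scaling, at 0.11 and 0.055. HOXD13 had 0.23 (SE 0.071, adjusted p = 0.115). The gene nearest to the threshold was HOXB8, at -0.46 (SE 0.096, adjusted p = 0.0502), followed by HOXA10 at -0.36 (SE 0.077, adjusted p = 0.0537), a pair named after their values were seen. The largest decrease in estimate was that of HOXD9, at -0.72 (SE 0.24, adjusted p = 0.134), whose WT libraries were far apart. Without the second WT library HOXD9 (-1.09) and HOXD4 (-1.01) were called, so that 1 library decided whether any HOX gene was called. Leaving out this library also raised the number of all genes past the adjusted p. With the replicate number fitted as a block, HOXA3, HOXA9, HOXA10, HOXB8 and HOXD9 passed the adjusted p, from 0.0278 for HOXD9 to 0.0488 for HOXA9, and none reached a fold change of 2. Over all 14741 genes 442 were higher and 827 lower in that fit, against 194 and 467 in the reported fit.

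With SETD2 FL, relative to KO, no HOX gene passed the test either, and most estimates were small and negative. None of 35 tested HOX genes was called by limma, against 0.0816% of 15929 genes tested, and 0 passed the adjusted p alone, against 0.176% of all genes higher and 0.0314% lower. Of the HOX genes 9 had an unadjusted p under 0.05, as did 15.9% of all genes. Of the 35 estimates 5 were positive and 30 negative, whereas 51.4% of all genes had a positive estimate, and the median was -0.12 (all genes 0.0055). SETD2 FL lay below KO without overlap for 21 HOX genes (23.4% of all genes) and above it for 2 (24.8%), or for 20 (18.2%) and 2 (27.3%) without scaling. The cluster medians were -0.087 for HOXA, -0.12 for HOXB, -0.18 for HOXC and -0.20 for HOXD, and each was negative also without scaling and under quantile normalization. HOXA9 had a log2 fold change of -0.16 (SE 0.07, adjusted p = 0.319). That of HOXB9 was -0.17 (SE 0.056, adjusted p = 0.226) and that of HOXC4 -0.17 (SE 0.068, adjusted p = 0.284). HOXD13 came to -0.20 (SE 0.066, adjusted p = 0.227). The lowest p belonged to HOXB5, at -0.37 (SE 0.091, adjusted p = 0.152), and the largest negative estimate to HOXD3, at -0.62 (SE 0.17, adjusted p = 0.183), both named after their values were seen.

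**Figure D3:**
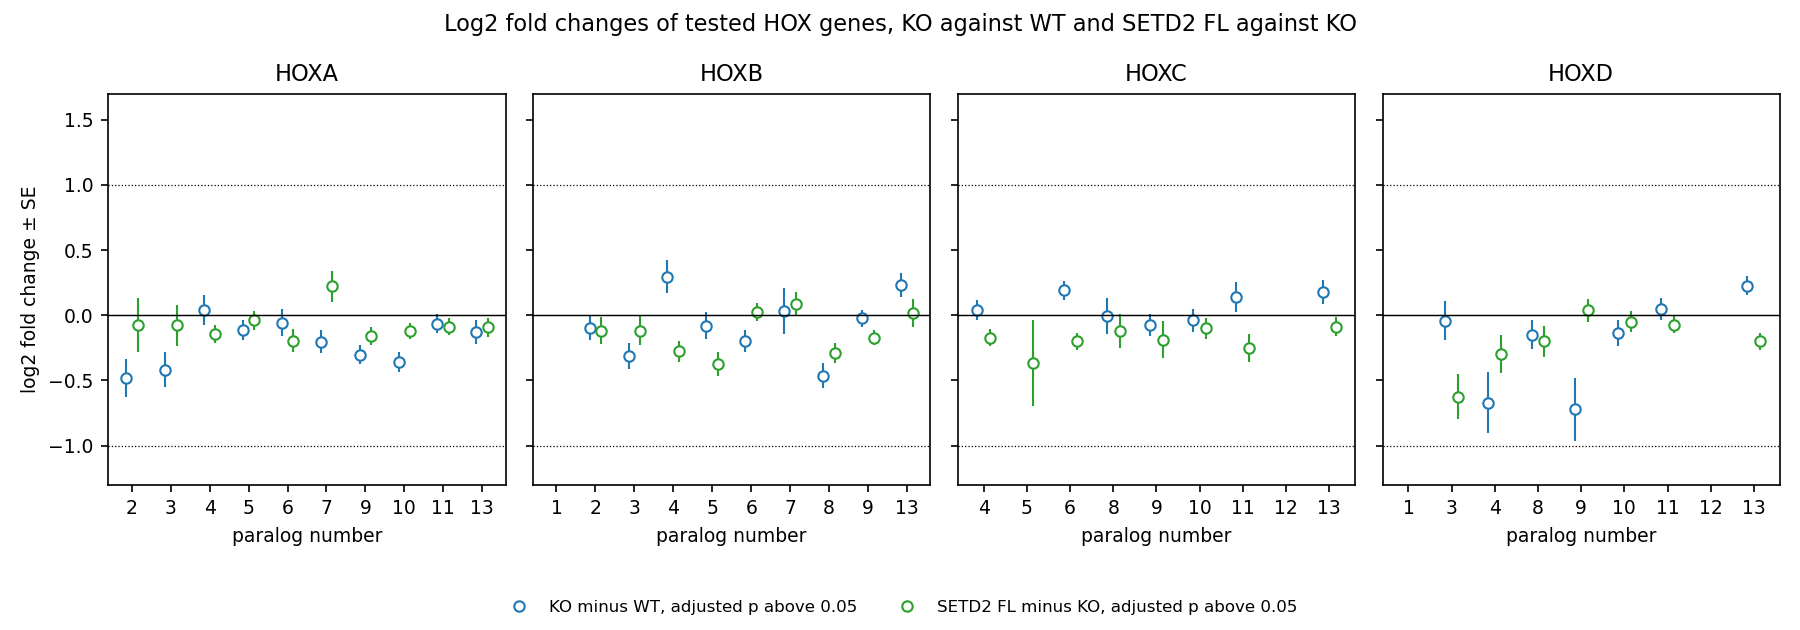
Log2 fold change with standard error of tested HOX genes, in order within the clusters, for KO minus WT and for SETD2 FL minus KO, with dotted lines at a 2-fold change. No point is filled, which would mark an adjusted p of at most 0.05, and of all tested HOX genes 23 of 34 (without scaling the median is positive, at 0.059) and 30 of 35 have an estimate below 0.

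With SETD2 C, relative to KO, HOXA13 rose by more than 2-fold and a few genes, most of them in HOXD, rose by less, while HOXC genes did not pass in the reported fit. Scaled values of HOXA13 were higher in both SETD2 C libraries than in both KO libraries, with a log2 fold change of 1.36 (SE 0.071, adjusted p = 2.14e-05) and a 95% interval of 1.20 to 1.53. It was the only HOX gene called of 35 tested, against 4.06% of 15929 genes tested, and it was called under every alternative tried. At the adjusted p alone 9 HOX genes were higher, against 21.1% of all genes, and 3 were lower, against 15.1%, so the share that was higher was near the background. Without scaling the counts were 14 higher (34.6% of all genes) and 0 lower (7%), with HOXC10 (0.33, adjusted p = 0.0163) and HOXC6 (0.23, adjusted p = 0.0344) among the 14, and under quantile normalization 8 higher (15.4%) and 7 lower (17.5%). SETD2 C lay above KO without overlap for 15 HOX genes (40.5% of all genes) and below it for 10 (30.8%), or for 22 (57.1%) and 5 (16.5%) without scaling. The median was 0.091 (all genes 0.046). By cluster, the median was 0.097 for HOXA, 0.074 for HOXB, 0.41 for HOXD and -0.014 for HOXC, and that of HOXC became 0.13 without scaling.

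In HOXA, HOXA4 rose with a log2 fold change of 0.82 (SE 0.07, adjusted p = 0.000243), and HOXA9, the leading gene, had -0.047 (SE 0.07, adjusted p = 0.631), which became 0.10 without scaling and 0.042 without the first SETD2 C library. In HOXD, 5 of 7 tested genes passed the adjusted p, all higher. HOXD11 rose by 0.65 (SE 0.066, adjusted p = 0.000493) on the log2 scale and HOXD10 by 0.61 (SE 0.081, adjusted p = 0.00141). The leading gene HOXD13 rose by 0.42 (SE 0.066, adjusted p = 0.00278). HOXD8 (0.41) and HOXD9 (0.40) also passed, although HOXD8 did not under quantile normalization (0.28, adjusted p = 0.112), without the filter (adjusted p = 0.0786), without either KO library or without the second SETD2 C library (adjusted p = 0.159 in the last case). HOXD9 likewise did not pass without KO replicate 4 (adjusted p = 0.0625) or without the second SETD2 C library (adjusted p = 0.0564). The exons of HOXD10 and HOXD11 share 18.2% and 21.4% of their bases on the same strand, so reads of these genes are in part divided between them by estimation.

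In HOXB, directions differed between genes. HOXB4 rose by 0.54 (SE 0.084, adjusted p = 0.00253) on the log2 scale and HOXB6 by 0.24 (SE 0.066, adjusted p = 0.0252). HOXB5 had a log2 fold change of -0.37 (SE 0.091, adjusted p = 0.0158), HOXB9 of -0.31 (SE 0.056, adjusted p = 0.00484) and HOXB13 of -0.33 (SE 0.11, adjusted p = 0.044), all lower with SETD2 C. Without scaling these 3 decreases did not pass the test, with adjusted p = 0.0866, 0.0795 and 0.210 in that order. HOXB6 did not pass without any single library of these groups, with an adjusted p from 0.0522 without the first SETD2 C library to 0.136 without the second. HOXB5 passed only without the first SETD2 C library, and had adjusted p = 0.0551 without KO replicate 2, 0.0712 without KO replicate 4 and 0.0784 without the second SETD2 C library. HOXB13 behaved in the same way, with adjusted p = 0.161, 0.0875 and 0.221. HOXB13 also did not pass without the filter (adjusted p = 0.0958), without a trend in eBayes (0.0664) or with all gene types (0.0612). HOXC4, the leading gene of HOXC, had -0.11 (SE 0.068, adjusted p = 0.239), and 0.036 without scaling. The number of HOX genes past the adjusted p was 12 in all. It fell without KO replicate 4, KO replicate 2 or the second SETD2 C library, as did the number over all genes. The 6 genes that passed under all 13 alternatives were HOXA4, HOXA13, HOXB4, HOXD10, HOXD11 and HOXD13, and all were higher. The share of all genes that passed under every alternative was not computed, so this count has no background beside it.

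SETD2 C against SETD2 FL compares cells that both received a construct. HOXA13 again was the only HOX gene called of 35 (all genes 3.79%), with a log2 fold change of 1.46 (SE 0.071, adjusted p = 1.55e-05), and without scaling HOXA4 was called as well. At the adjusted p alone 14 HOX genes were higher, against 21.4% of all genes, and 3 were lower, against 16.8%. Unscaled values gave 20 higher (32.6% of all genes) and 0 lower (9.47%), and quantile normalization gave 13 higher (16.9%) and 4 lower (19.2%). SETD2 C lay above SETD2 FL without overlap for 25 HOX genes (40.3% of all genes) and below it for 4 (32%), or for 29 (52.9%) and 3 (19.5%) without scaling. Of 35 estimates 29 were positive (54.8% of all genes), or 26 under quantile normalization (47.2%). The median was 0.23 (all genes 0.042), or 0.17 under quantile normalization and 0.35 without scaling. The cluster medians were 0.19 for HOXA, 0.22 for HOXB, 0.21 for HOXC and 0.61 for HOXD, positive under each scaling. HOXA4 rose by 0.97 (SE 0.07, adjusted p = 0.000101) on the log2 scale, HOXB4 by 0.82 (SE 0.084, adjusted p = 0.00046) and HOXD11 by 0.72 (SE 0.066, adjusted p = 0.000291). Of the leading genes HOXD13 rose by 0.62 (SE 0.066, adjusted p = 0.00052). HOXA9 had 0.11 (SE 0.07, adjusted p = 0.236), HOXB9 -0.14 (SE 0.056, adjusted p = 0.0841) and HOXC4 0.06 (SE 0.068, adjusted p = 0.51). Without scaling HOXA9 passed (0.24, adjusted p = 0.0328), HOXB9 was at -0.013 and HOXC4 at 0.19.

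In SETD2 C libraries 3 genes were lower relative to SETD2 FL, namely HOXA7, with a log2 fold change of -0.38 (SE 0.12, adjusted p = 0.0396), HOXB13, with -0.34 (SE 0.11, adjusted p = 0.0346), and HOXB7, with -0.32 (SE 0.091, adjusted p = 0.0257). None of the 3 passed without scaling or without the filter. HOXB7 and HOXB13 did not pass without a trend in eBayes, HOXA7 and HOXB13 with all gene types, and HOXA7 with only the groups compared. Without FL replicate 3 the adjusted p was 0.0583 for HOXA7 and 0.114 for HOXB7, and without FL replicate 4 it was 0.181, 0.0572 and, for HOXB13, 0.167. Without the first SETD2 C library HOXB7 had 0.132, and without the second HOXA7 had 0.191 and HOXB13 0.18. The count of 17 HOX genes past the adjusted p fell with any single library of these groups left out, as did the counts over all genes. The 8 genes that passed under all alternatives were HOXA4, HOXA13, HOXB4, HOXB8, HOXD8, HOXD10, HOXD11 and HOXD13, each higher with SETD2 C. For this count, too, the share over all genes was not computed. In the order of the genes along the clusters, the median log2 fold change between SETD2 C and SETD2 FL was 0.26 for numbers 1 to 4, 0.22 for 5 to 8 and 0.25 for 9 to 13, and against KO it was 0.12, 0.074 and 0.079.

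**Figure D4:**
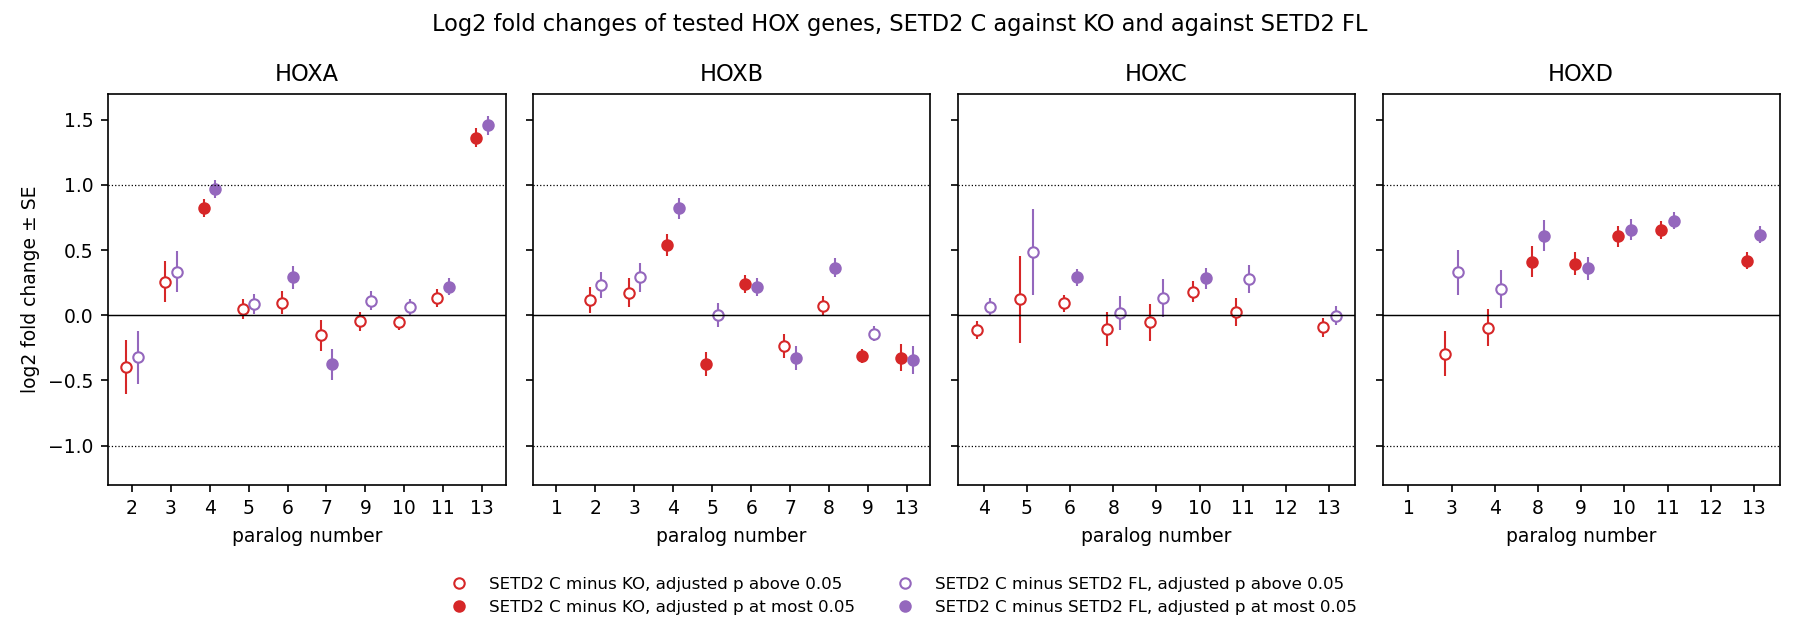
Log2 fold change with standard error of tested HOX genes for SETD2 C minus KO and for SETD2 C minus SETD2 FL, with dotted lines at a 2-fold change and filled points for an adjusted p of at most 0.05. HOXA13 is the only gene beyond the dotted lines, at 1.36 and 1.46, and 5 of 7 HOXD genes are filled in both comparisons.

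HOXA13 (ENSG00000106031, chr7:27193503-27200091) and HOXA4 (ENSG00000197576, chr7:27128507-27130780) lie on the minus strand, and HOXD10 (ENSG00000128710, chr2:176108790-176119937) and HOXD11 (ENSG00000128713, chr2:176104216-176109754) on the plus strand. HOXB4 (ENSG00000182742) lies at chr17:48575507-48578350, minus strand. Promoters of the first 4 are shown because these genes had the 4 largest increases with SETD2 C relative to KO. Each is the 250 bases before a RefSeq start in GRCh38.p14, at chr7:27130758-27131007 (minus strand) for HOXA4, chr7:27200092-27200341 (minus strand) for HOXA13, chr2:176116528-176116777 (plus strand) for HOXD10 and chr2:176107030-176107279 (plus strand) for HOXD11. The window of HOXA4 holds 23 bases of an annotated HOXA4 exon, that of HOXA13 lies upstream of the gene, and those of HOXD10 and HOXD11 lie within introns of their genes. Capitals mark matches on either strand to CCAAT (the sequence bound by NF-Y), GGGCGG (the motif bound by proteins such as SP1), TATAAA (the motif bound by TBP) and TGATNNAT (a composite of PBX and HOX sites). A capital run may hold overlapping matches.
HOXA4: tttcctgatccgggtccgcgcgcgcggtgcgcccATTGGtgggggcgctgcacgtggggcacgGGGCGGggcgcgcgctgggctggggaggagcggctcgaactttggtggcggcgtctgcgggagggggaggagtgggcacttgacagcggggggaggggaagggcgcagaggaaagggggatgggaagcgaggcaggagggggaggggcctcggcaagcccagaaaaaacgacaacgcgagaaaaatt
HOXA13: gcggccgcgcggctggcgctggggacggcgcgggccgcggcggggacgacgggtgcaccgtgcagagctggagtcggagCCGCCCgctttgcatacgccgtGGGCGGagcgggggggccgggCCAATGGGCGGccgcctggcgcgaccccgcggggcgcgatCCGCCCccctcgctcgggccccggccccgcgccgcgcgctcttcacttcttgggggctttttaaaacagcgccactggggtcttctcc
HOXD10: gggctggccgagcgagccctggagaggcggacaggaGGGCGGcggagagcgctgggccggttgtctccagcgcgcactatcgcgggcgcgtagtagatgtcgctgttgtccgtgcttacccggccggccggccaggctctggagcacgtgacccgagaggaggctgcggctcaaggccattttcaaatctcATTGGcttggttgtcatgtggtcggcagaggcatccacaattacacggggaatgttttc
HOXD11: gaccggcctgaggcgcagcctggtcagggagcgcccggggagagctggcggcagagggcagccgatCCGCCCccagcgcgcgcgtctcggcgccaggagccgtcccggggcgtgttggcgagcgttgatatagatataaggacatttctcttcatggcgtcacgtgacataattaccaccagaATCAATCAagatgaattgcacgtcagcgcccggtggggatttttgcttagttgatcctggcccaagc
HOX promoters were found for 20 of the 39 genes, in 27 windows, out of 35116 windows in the table. CCAAT was present for 17 of the 20 genes and in 18 of the 27 windows, against 32.0% of all windows. GGGCGG was present for 10 genes, in 13 windows, against 42.6%, TATAAA for 4 genes, in 5 windows, against 10.7%, and TGATNNAT for 3 genes, in 3 windows, against 6.47%. The median number of CpG was 19 in HOX windows and 11 in all windows, and the median G+C content was 58.8% and 58.0%. HOXA13 had the highest G+C content of the HOX windows, 78.0%, with 40 CpG, 1 CCAAT and 4 GGGCGG. HOXA4 held 26 CpG, HOXD10 23 and HOXD11 23, and HOXD11 had the composite match and no CCAAT. A match describes the sequence and does not show binding.

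The clusters also contain long noncoding RNAs, many of them antisense to HOX genes and some starting near HOX promoters. Of 24 listed, including 6 microRNA genes at 0 in all libraries, 15 were tested in each table. With SETD2 C relative to KO 11 of the 15 rose at the adjusted p and none of the others fell, against 31% of all 2510 tested lncRNAs higher and 4.18% lower, and the median log2 fold change was 0.62 (all lncRNAs 0.32). Relative to SETD2 FL 9 rose and none fell, against 34.3% of lncRNAs higher and 2.79% lower, with a median of 0.62 (all lncRNAs 0.36). Over all lncRNAs, too, more rose than fell with SETD2 C. With a library left out the 11 became 7 (without KO replicate 4), 8 (without either SETD2 C library) or 11, and the 9 became 7 (without the second SETD2 C library) to 9. Between KO and WT 0 passed in limma, against 1.09% of all lncRNAs higher and 3.05% lower. Of the 15, 4 had an unadjusted p under 0.05, as did 24.9% of all genes, and the median was -0.099 (all lncRNAs -0.0996). With SETD2 FL relative to KO only HOTAIRM1 passed, against 0.0797% of lncRNAs higher and 0.12% lower (median -0.15, all lncRNAs -0.0514). HOTAIRM1, transcribed from HOXA and named for its role in myeloid cells, was the most abundant, with a TPM of 109 and 109 in KO, 82.3 and 88.8 in SETD2 FL and 145 and 149.9 in SETD2 C. Its groups did not overlap, SETD2 FL being lowest (-0.37 (SE 0.05, adjusted p = 0.0436) against KO) and SETD2 C highest. The decrease with SETD2 FL did not pass without scaling (adjusted p = 0.0551), without the filter, without a trend in eBayes, with all gene types, with only the groups compared or without any single library, with an adjusted p from 0.107 without FL replicate 4 to 0.212 without KO replicate 4. HOXB-AS3 stood at 20.5 and 21.9 in KO, 26.6 and 22.7 in SETD2 FL and 42.04 and 42.3 in SETD2 C. HOXA11-AS was at 16.7 and 17.4 in KO, 13.8 and 15.1 in SETD2 FL and 26.2 and 28.4 in SETD2 C. For both, the SETD2 C values were above all others of the table.

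Among the called RNAs, HOXA-AS2, antisense to the region between HOXA3 and HOXA4, had a TPM of 9.98 and 11.4 in KO, 7 and 7.02 in SETD2 FL and 26.8 and 31.8 in SETD2 C. It rose by 1.26 (SE 0.10, adjusted p = 0.000206) on the log2 scale against KO and by 1.86 (SE 0.10, adjusted p = 2.97e-05) against SETD2 FL. HOXA4, its neighbour, was one of the HOX genes that rose, and 31.3% of HOXA4 exon bases are shared with another transcript on the same strand and 16.5% with HOXA-AS2 or HOXA-AS3 on the opposite strand. The strand setting used when reads were assigned to genes is not known here, so the division of reads between HOXA4 and these RNAs is uncertain. HOTTIP, which starts beside HOXA13 and is known to promote transcription of posterior HOXA genes, had a TPM of 0.63 and 0.53 in KO, 0.42 and 0.28 in SETD2 FL and 1.32 and 1.68 in SETD2 C. SETD2 C was above both other groups, with a log2 fold change of 1.15 (SE 0.19, adjusted p = 0.00281) against SETD2 FL. HOTTIP and HOXA13 share 1.7% of HOXA13 exon bases. HOXA-AS3 rose by 1.27 (SE 0.21, adjusted p = 0.00347) and HOXC-AS3 by 1.22 (SE 0.24, adjusted p = 0.00709) against KO, and HOXC-AS1 by 1.09 (SE 0.16, adjusted p = 0.00163) against SETD2 FL. The increase of HOXC-AS3 was under 2-fold without the first SETD2 C library (0.95), and that of HOXC-AS1 without FL replicate 4 (0.93). At a pseudocount of 1 HOTTIP was at 0.82, HOXA-AS3 at 0.97 and HOXC-AS3 at 0.91, and under quantile normalization they were at 0.86, 0.94 and 0.88, each under 2-fold. The plot of single libraries sets HOXA13 beside HOTTIP and HOXA4 beside HOXA-AS2.

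**Figure D5:**
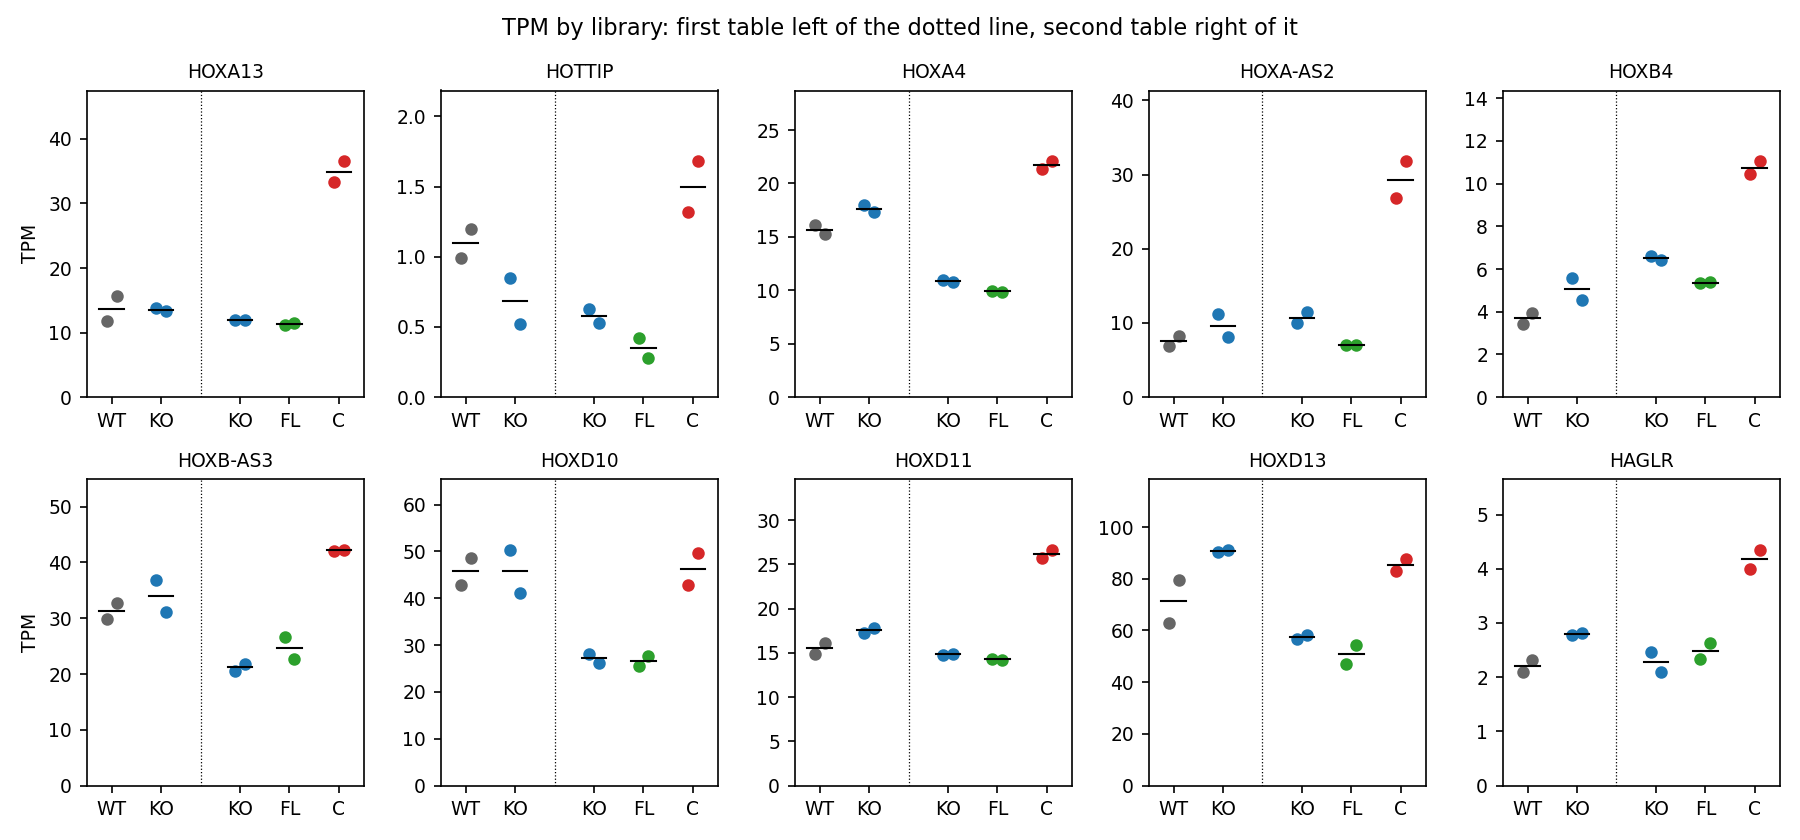
TPM of HOX genes and noncoding RNAs in each library of both tables, 1 panel for each gene, with 1 point for each library, a bar at each group's mean and groups along the horizontal axis. Of the second table's values, those of HOXA13, HOTTIP, HOXA4 and HOXA-AS2 are highest in the SETD2 C libraries.

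Genes for proteins that act with HOX proteins or on the clusters were compared with the shares over all genes, which were 21.1% higher and 15.1% lower with SETD2 C relative to KO and 21.4% and 16.8% relative to SETD2 FL at the adjusted p, and 1.32% and 3.17% between KO and WT. Of 9 cofactors that bind DNA together with HOX proteins 3 passed the adjusted p with SETD2 C relative to KO, all higher (median log2 fold change -0.033), but 0 did without KO replicate 4 or the second SETD2 C library and 1 without KO replicate 2 or the first SETD2 C library. The count was 2 relative to SETD2 FL (median 0.22). With SETD2 FL relative to KO 0 of the 9 passed in limma and 4 had an unadjusted p under 0.05, as did 15.9% of all genes (median -0.075), and between KO and WT only MEIS1 passed the adjusted p (0.68 (SE 0.088, adjusted p = 0.0129)), while 4 had an unadjusted p under 0.05, as did 24.9% of all genes (median 0.13). MEIS1, a partner of HOXA9 in leukemia, had a TPM of 9.67 and 12.5 in WT and 19.3 and 19.9 in KO, without overlap, and it did not pass without the filter (adjusted p = 0.072), without KO replicate 1 (adjusted p = 0.0511) or KO replicate 2 (adjusted p = 0.0904). Among the most abundant cofactors were PBX2, at 54.6 and 49.6 TPM in KO and 53.9 and 54.0 with SETD2 C, and PBX3, at 24.4 and 20.9 against 22.9 and 24.2. Of 22 trithorax proteins and other activators 1 was higher and 5 were lower with SETD2 C relative to KO (median -0.032), and 3 to 4 were lower with a library left out (3 without KO replicate 2 or the second SETD2 C library). Of 22 polycomb proteins 4 were higher and 2 lower (median 0.02), with 1 lower without KO replicate 4 and 0 without any other library. No trithorax or polycomb gene was called in any of the 4 comparisons. Few of all genes were called either: 1.36% for KO minus WT and 0.0816% for SETD2 FL minus KO. The called shares were 4.06% for SETD2 C minus KO and 3.79% for SETD2 C minus SETD2 FL. CRABP2, which carries retinoic acid, an inducer of anterior HOX genes, to its receptors, had a TPM of 23.4 and 25.4 in KO, 25.1 and 27.5 in SETD2 FL and 143 and 137 in SETD2 C. It rose by 2.35 (SE 0.066, adjusted p = 2.28e-06) on the log2 scale against KO, the larger of 2 calls among 12 tested genes of retinoid signalling and the CDX family (all genes 4.06%), the other being the receptor RXRG (1.46 (SE 0.19, adjusted p = 0.00127)).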

How the data were processed

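RNA was sequenced after ribosomal RNA depletion and polyA selection. Per the labels, the authors used bcl2fastq 2.18, STAR 2.6.1c and RSEM 1.3.0 on hg38 and deposited TPM per gene, not scaled between libraries, in 2 tables of 4 and 6 libraries. The tables were never pooled in a test. For their own test the authors ran edgeR on counts, and neither the counts nor the other samples of the series were used here. TPM carries no depth, so no counting error can be given. Gene types and positions came from GENCODE 44, where 58472 of the listed genes were found by identifier and 21 by a unique symbol, and 391 were not found. Testing was limited to genes of protein-coding or lncRNA type that reached 0.5 TPM in 2 or more libraries of a table. To scale a library, its TPM values were divided by their median ratio to the mean of logs across libraries, taken over genes at 1 TPM or more throughout. The test was limma 3.58.1 (R 4.3.3) on log2(scaled TPM + 0.5), by lmFit and contrasts.fit, then eBayes with a trend, with Benjamini-Hochberg adjustment. The 6 libraries of the second table shared 1 fit. Scaling factors ran from 0.879 to 1.06 in the first table and from 0.956 to 1.07 in the second, and replicates correlated across genes at 0.993 to 0.995, genes not being independent replicates. Sums, motifs and figures were made with Python 3.11.15, pandas 2.3.3 and matplotlib 3.10.9, and promoters were taken from RefSeq on GRCh38.p14. The procedure was tested on simulated data, made for SETD2 C against KO over 15472 genes and fitted without scaling. Of 100 genes shifted by 1.5 on the log2 scale 97 were called, as were all 100 shifted by 3 and 2 of the other 15272, and 0 were called where none was shifted. The simulation did not include the scaling step or shifts as small as most HOX estimates, so it says nothing about either.

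Members and gene lists were chosen with earlier results of these data known. HOX genes are given by cluster, those with a mean TPM of at least 5 in either table with every value and the rest with a range. Fold changes are given for HOX genes past either rule (over 8 in a comparison, the 4 largest increases and 4 largest decreases whose groups did not overlap) and for each cluster's most abundant gene, and in other lists for called genes (at most 5) and the 3 with the highest mean TPM over the libraries of both tables. Some genes that met these rules are not reported here singly, and counts, sums and medians include them. The lists were noncoding RNAs and flanking genes of the clusters, HOX cofactors, trithorax and polycomb proteins, retinoid and CDX regulators, other homeobox genes and markers of cell types. As alternatives the pseudocount was set to 0.1 and 1, the filter to any TPM above 0 and to 1 TPM in all libraries, and scaling was left out or replaced by quantile normalization. Further ones were eBayes without trend, all listed gene types, a fit of only the groups compared, a replicate block in the first table, and each library left out in turn.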

Additional observations from a re-analysis of the deposited data

How the results depend on the processing

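Across alternatives, 964 values were computed for 75 single-gene results. Of these 860 kept direction and side of the adjusted p threshold, 90 no longer passed, 8 newly passed and 6 turned direction, a tally that leaves the 2-fold limit aside. HOXA13 was called with SETD2 C under every alternative, against KO and against SETD2 FL. Between KO and WT the number of HOX genes past the adjusted p was 0 as reported, 2 where each tested gene had 1 TPM or more in all libraries, 1 without scaling, 2 under quantile normalization, and 5 with a replicate block, which treats WT and KO libraries of the same number as paired. With that block more of all genes passed as well. Differences between replicates 1 and 2 correlated at 0.147 between WT and KO across genes. No paired analysis was possible in the second table because its groups share fewer than 2 numbers. With each library left out in turn, and a lone sample assumed to vary like the other groups, the HOX median ran from -0.14 to -0.036. The number of HOX genes past the adjusted p, and the number called, changed only without WT replicate 2, where more of all genes passed as well. Without scaling that median was 0.059, HOXB9 was at 0.11 and HOXC9 at 0.055, and HOXC9 was at 0.0054 without WT replicate 1.

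With SETD2 FL relative to KO the HOX median was -0.11 at a pseudocount of 1, -0.10 without scaling, and -0.16 to -0.11 with a library left out. With SETD2 C relative to KO it was 0.22 without scaling, and HOXA9 was at 0.10 and HOXC4 at 0.036, while HOXA9 was at 0.042 without the first SETD2 C library, and 7 to 12 HOX genes passed the adjusted p with a library left out. Relative to SETD2 FL 2 genes were called without scaling, where HOXA9 (0.24) newly passed the adjusted p, the median was 0.35 without scaling and 0.17 under quantile normalization, and 11 genes passed the adjusted p without a trend in eBayes and 10 to 12 with a library left out. In both SETD2 C comparisons fewer of all genes, too, passed the adjusted p with any of their libraries left out. Without a trend in eBayes 3159 of all 15929 genes were higher and 2120 lower with SETD2 C than with SETD2 FL. The reported fit gave 3409 and 2675. The lower HOX counts in these fits are therefore not particular to HOX genes. No scaling removes the median-ratio step by construction, and for the other shifts the cause was not tested. The limits are 2 libraries in each group, an unknown depth, transfected cells compared with cells labelled untreated, and a strand setting that is not known. A further limit is that SETD2 loss cannot be told apart from other differences between WT and the KO line.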

Other observations

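Genes flanking the clusters were measured beside the HOX genes. Of 20 listed, 15 were tested in the first table and 18 in the second. Between KO and WT 0 passed the adjusted p in limma, against 1.32% of all genes higher and 3.17% lower. Of the 15 tested, 5 had an unadjusted p under 0.05, as did 24.9% of all genes (median log2 fold change -0.0008). With SETD2 FL relative to KO 0 passed either p, against 15.9% of all genes at the unadjusted p (median -0.061). With SETD2 C 7 of 18 rose and 1 fell relative to KO (median 0.19, all genes 21.1% higher and 15.1% lower). Relative to SETD2 FL 10 rose and 1 fell (median 0.34, all genes 21.4% and 16.8%). None was called in either comparison, against 4.06% and 3.79% of all genes. With a library left out 4 to 5 rose relative to KO (4 without KO replicate 4 or either SETD2 C library) and 5 to 7 relative to SETD2 FL (5 without the second SETD2 C library, 6 without either FL library), and 1 fell. The most abundant was HNRNPA1, which encodes a splicing factor and lies beyond HOXC, with a TPM of 3202 and 2946 in KO, 2757 and 3149 in SETD2 FL and 2965 and 3273 in SETD2 C. ATP5MC2, which encodes a subunit of the mitochondrial ATP synthase and lies near HOXC, was the gene that fell, with 699 and 710.0 in KO, 643 and 683 in SETD2 FL and 593 and 587 in SETD2 C, and a log2 fold change of -0.40 (SE 0.047, adjusted p = 0.000861) against KO. Its paralog ATP5MC3, beside HOXD, stood at 489 and 521 in KO, 530.4 and 509.9 in SETD2 FL and 522 and 515 in SETD2 C.

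Of 53 other homeobox genes 42 were tested in the first table and 40 in the second. The head gene OTX2 had a TPM of 0.94 and 1.2 in WT and 0.03 and 0.01 in KO. It passed the filter by its WT values alone and the size of its change is set by the pseudocount, so its test is not used here. It was listed at 0 in the second table. MSX2, a BMP target in limb and skull, had a TPM of 8.49 and 8.05 in KO, 10.4 and 11.1 in SETD2 FL and 20.9 and 20.5 in SETD2 C and rose by 1.13 (SE 0.072, adjusted p = 6.00e-05) on the log2 scale with SETD2 C relative to KO, where 6 of 40 were higher and 7 lower at the adjusted p (median 0.03, all genes 21.1% and 15.1%). The first count ran from 1 (without the second SETD2 C library) to 6 and the second from 3 to 5 with a library left out. Relative to SETD2 FL 5 were higher and 6 lower (median 0.086, all genes 21.4% and 16.8%). Both counts changed with a library left out, the lower one most without the second SETD2 C library. With SETD2 FL relative to KO 0 passed in limma. Of the 40, 6 had an unadjusted p under 0.05, as did 15.9% of all genes (median -0.023). The median between KO and WT was -0.034. Among the most abundant were NKX2-5 at 25.6 and 24.8 TPM in KO and 26.4 and 23.6 with SETD2 C, and PITX1 at 21.9 and 22.1 against 18.98 and 18.7. Activators of the trithorax list numbered 1 higher and 7 lower with SETD2 C relative to SETD2 FL, or 0 to 1 and 3 to 5 with a library left out (median -0.074), and PSIP1, DPY30 and MEN1 were among the most abundant, with DPY30 at 113 and 118 TPM in KO and 134 and 133 with SETD2 C, PSIP1 at 152 and 139.7 against 154 and 176, and MEN1 at 45.4 and 42.5 against 39.1 and 39.1. Polycomb genes numbered 3 higher and 1 lower in that comparison, or 3 to 5 and 0 to 1 with a library left out (median 0.092), with BMI1 at 45.2 and 50.7 TPM in KO and 58.7 and 68.7 with SETD2 C, BAP1 at 59.6 and 55.5 against 61.3 and 60.2, and EZH2 at 49.6 and 47.5 against 54.01 and 57.3. In KO relative to WT the medians were 0.16 for trithorax, 0.057 for polycomb, where 2 of 22 were higher (all genes 1.32%) but 3 without WT replicate 2 and 0 without any other library, and 0.015 for the retinoid list, and with SETD2 FL they were 0.021, -0.066 and -0.0001. The retinoid list had a median of 0.13 with SETD2 C relative to KO, with 4 of 12 genes higher and 2 lower, and of 0.091 relative to SETD2 FL, with 5 higher and 2 lower, which became 4 and 0 to 2, and 3 to 5 and 0, with a library left out, beside the shares of all genes given above. ALDH1A2, which makes retinoic acid, was at 21.2 and 22.6 TPM in KO and 22.6 and 24.7 with SETD2 C, and RXRB at 26.8 and 28.4 against 33.8 and 34.1.

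Of 6 markers of HEK293T cells, 5 were at 27.06 TPM or more in all libraries, while PAX2 was at 0.99 to 2.21. The 6 genes summed to 733 and 858 TPM in WT and 1063 and 1016 in KO of the first table, and to 1087 and 1085 in KO, 915 and 1043 in SETD2 FL and 1552 and 1630 in SETD2 C, VIM being the most abundant and none being at 0. With SETD2 C relative to KO 4 of the 6 were higher (median 0.71, all genes 21.1%). The called genes were KRT8 (1.61), NEFL (1.22) and NEFM (1.20), against 4.06% of all genes called. Relative to SETD2 FL 5 were higher (median 0.79, all genes 21.4%), between KO and WT 2 were higher, but 0 without WT replicate 1 or either KO library (median 0.18, all genes 1.32%), and the median with SETD2 FL relative to KO was -0.094. Sums over blood markers reached at most 2.78 TPM, over fibroblast markers 14.3, over endothelium markers 0.2, over skeletal muscle markers 1.88 and over markers of mature kidney tubule 4.0, where UMOD was at 0 in every library. In each of the blood, fibroblast and muscle lists 1 gene was called with SETD2 C relative to KO, namely HBA1, LUM and DES. These lists held 1, 2 and 1 tested genes, and 4.06% of all genes were called. HBA1 had a TPM of 0 and 0.86 in KO and 2.34 and 2.71 in SETD2 C, with a log2 fold change of 1.78 (SE 0.41, adjusted p = 0.0132). LUM had 0.35 and 0.45 against 1.79 and 1.2, with 1.04 (SE 0.20, adjusted p = 0.00662). DES had 0.28 and 0.5 against 1.75 and 1.24, with 1.07 (SE 0.21, adjusted p = 0.0065). HBA1 did not pass without the filter (adjusted p = 0.0633) or without the second SETD2 C library (adjusted p = 0.068), nor LUM (adjusted p = 0.0533) and DES (adjusted p = 0.054) without the first, and both were under 2-fold without KO replicate 2 (0.96 and 0.89), at a pseudocount of 1 (0.75 and 0.77) and under quantile normalization (0.69 and 0.71). LRP2 was lower in KO than in WT, with 3.95 and 3.84 TPM in WT, 2.4 and 2.26 in KO and a log2 fold change of -0.75 (SE 0.14, adjusted p = 0.0363). It did not pass without WT replicate 1 or without either KO library.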
